A study of Mus musculus with 4 samples.

Results

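Arginase 1, encoded by *Arg1*, was examined as 1 of the 11352 genes with a row in the count table of single group 2 innate lymphoid cells (ILC2) from mouse pancreas. ILC2 are tissue lymphocytes that answer epithelial alarm signals with type 2 cytokines. C57BL6J cells were index-sorted from pancreas into plates of 384 wells and profiled by SORT-seq, in which CEL-seq2 chemistry tags the 3′ end of each polyadenylated RNA. They were labelled KIKR-Red (photoconverted) or KIKR-Green (non-photoconverted), after a reporter protein whose green fluorescence becomes red under violet light, so that a red cell was lit earlier. The labels give no driver of this protein, no animal, age, sex or light-exposed site and, although the study title names fasting, no feeding state for any cell, and do not say whether animals were pooled. Gene names could be used on plate 1 alone, which is 1 sample without replicate, so that every value below is a description and no p-value was computed. The plate held 12 photoconverted cells, 151 non-photoconverted cells and 221 wells left empty, of which 8 photoconverted and 98 non-photoconverted cells passed a filter of 500 or more detected genes and less than 25% of reads from the mitochondrion.

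Arginase 1 splits the amino acid arginine into ornithine and urea. In the liver it closes the urea cycle, and in macrophages it is the usual marker of type 2 activation, where it draws arginine away from nitric oxide synthesis. Mouse ILC2 are known to express it at rest and after activation, and its loss in lung ILC2 has been linked to lower glycolysis and proliferation. The gene lies on the minus strand of mouse chromosome 10, from 24915221 to 24927484 (mm10, GENCODE M21), and its protein-coding transcript Arg1-201 has 8 exons. No other annotated gene overlaps it. Its nearest neighbours, both on the plus strand, are *Gm36172*, which starts 135 bases from its 5′ end, and *Med23*, which ends 1540 bases from its 3′ end.

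*Arg1* was abundant in most photoconverted cells and split the non-photoconverted cells into cells with many reads and cells with few or none. The 8 photoconverted cells held 2107, 502, 69, 2016, 547, 398, 1367 and 7 *Arg1* reads. In 7 of them *Arg1* was at 69 reads or more, and the remaining one was the shallowest of the group, with 938 genes. The 98 non-photoconverted cells ranged from 0 to 1135 reads with a median of 7, and the 221 empty wells from 0 to 3 reads with a median of 0. The colours overlapped, since the highest non-photoconverted cells reached the photoconverted range, whereas no empty well reached the 16 reads taken here as detection.

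**Figure D1:**
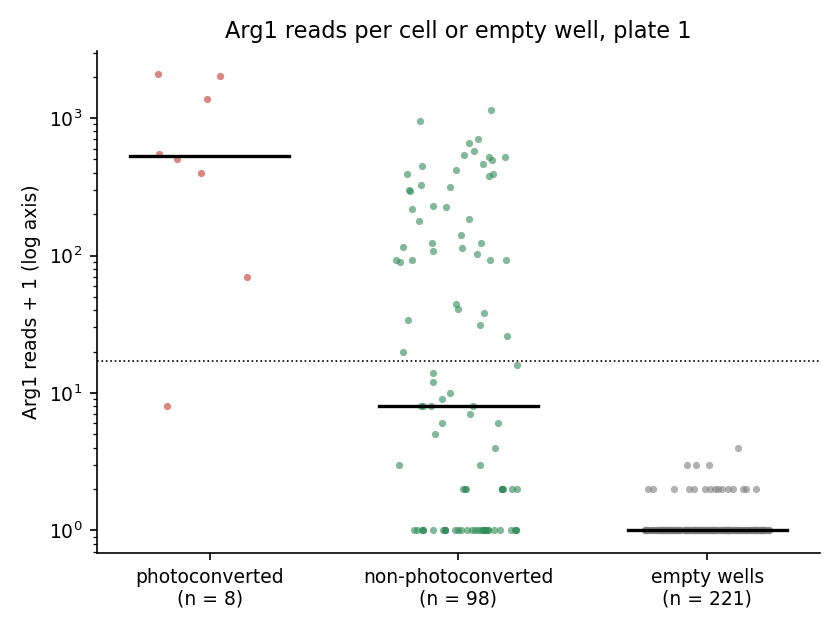
*Arg1* reads per cell or well of plate 1, plus 1 on a log axis, for photoconverted cells, non-photoconverted cells and empty wells. Bars are medians (524.5, 7 and 0 reads before adding 1), and the dotted line marks 16 reads, which 7 of 8, 43 of 98 and 0 of 221 reached.

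At 16 reads or more, *Arg1* was detected in 7 of 8 photoconverted cells (87.5%, exact 95% binomial interval 47.3 to 99.7%). Among non-photoconverted cells the count was 43 of 98 (43.9%, 33.9 to 54.3%). It was detected in 0 of 221 empty wells, which allows a share of up to 1.36%, taken as 3 counts of 221 (exact 95% upper limit 1.66%). Among the non-photoconverted cells, 30 had 0 reads, 25 had 1 to 15, 7 had 16 to 63 and 36 had 64 or more. Thus 8 of the 98 cells lay near the detection limit, between 8 and 32 reads, and the class of *Arg1*-positive cells used below is a range of reads and not a cell type. Low values of 1 to 15 reads were present in 25 of 98 non-photoconverted cells (25.5%) and 19 of 221 empty wells (8.6%), where none exceeded 3 reads. The intervals cover counting error over cells, and PCR copies of 1 molecule add reads without adding molecules.

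Detection followed the depth of a cell. When the non-photoconverted cells were divided into 4 strata from fewest to most genes, *Arg1* was detected in 24%, 37.5%, 56% and 58.3% of 25, 24, 25 and 24 cells. Across these 98 cells its reads had a Spearman rho of 0.46 with the number of genes detected and 0.04 with spike-in reads, the synthetic RNA added to the wells. As reads per 1000000 reads of genes (CPM), its rho with the number of genes was 0.26. Photoconverted cells were deeper, with a median of 2748.5 genes and 540662 gene reads, against 1637 genes and 187690 gene reads in non-photoconverted cells. Spike-in reads did not run in that direction, with medians of 59283.5 for photoconverted and 67405 for non-photoconverted cells. More RNA per cell and better capture of it cannot be told apart from these values.

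Set beside non-photoconverted cells with a like number of genes, the photoconverted cells still had *Arg1* more often and at a higher mean level. For each photoconverted cell the 5 non-photoconverted cells with the closest number of genes were taken. This gave 40 matches from 29 different cells, and here and below a cell counts each time it was matched. The matches had a median of 2718.5 genes. Counted once each, the 29 cells had a median of 2513 genes, and 16 of them (55.2%) had *Arg1*. Over the 40 matches *Arg1* was detected in 60%, which lies inside the interval of 47.3 to 99.7% for 7 of 8 photoconverted cells. Against their 87.5% the difference was 27.5 percentage points. This size was not rare: 11.8% of 1754 genes detected in 15 to 85% of non-photoconverted cells were higher in photoconverted cells by 25 points or more, 7.24% were lower by that much, and 9.58% were higher by at least as much as *Arg1*. Gene reads were not matched, with medians of 540662 in photoconverted cells and 365563 in the 29 cells counted once each. The photoconverted cell with 5129 genes was also deeper than any non-photoconverted cell, which reached 4480 genes. The level of *Arg1* stood further out than its share. Mean *Arg1* was 1318 ± 1105 CPM in photoconverted cells (SD, n = 8 cells) and 410 CPM in the depth-matched cells, a ratio of 3.21 (log2 ratio 1.66 after adding 10 CPM to each mean). Over the 1754 genes the median log2 ratio was -0.31, 9.35% of genes were higher by 2-fold or more, and 2.62% by at least as much as *Arg1*.

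Drawing cells down to a common depth gave a like picture. At 1000 gene reads per cell, with 0 cells too shallow, *Arg1* would be seen in 59.9% of photoconverted cells, 27% of depth-matched cells and 25.3% of all non-photoconverted cells. Of the 1754 genes, 0.285% exceeded depth-matched cells by as much as *Arg1* on this scale, which a gene with few reads cannot reach. At 20000 gene reads, *Arg1* would have 16 reads or more in 67.9% of 8 photoconverted and 23.5% of 97 non-photoconverted cells.

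The mean in all non-photoconverted cells was 637 ± 1889 CPM (SD, n = 98 cells), so that the ratio of photoconverted to these cells was 2.07 (log2 ratio 1.04). A single shallow non-photoconverted cell with 562 genes, 26210 gene reads and 462 *Arg1* reads stood at 17627 CPM, and without it the log2 ratio was 1.49. Per 1000 spike-in reads, a scale that does not divide by the RNA of the cell, mean *Arg1* was 12.5 ± 9.54 in photoconverted cells (SD, n = 8 cells) and 2.09 ± 3.97 in non-photoconverted cells (SD, n = 98 cells).

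Where *Arg1* was present, its levels in the colours overlapped. Cells with 16 reads or more had a median of 1284 CPM in the 7 photoconverted cells (121 to 3412 CPM) and 906 CPM in the 43 non-photoconverted cells (88.7 to 17627 CPM). Of the 98 non-photoconverted cells, 42 had at least the CPM of the lowest photoconverted cell with *Arg1*, and 14 lay above the photoconverted median of 1243 CPM.

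**Figure D2:**
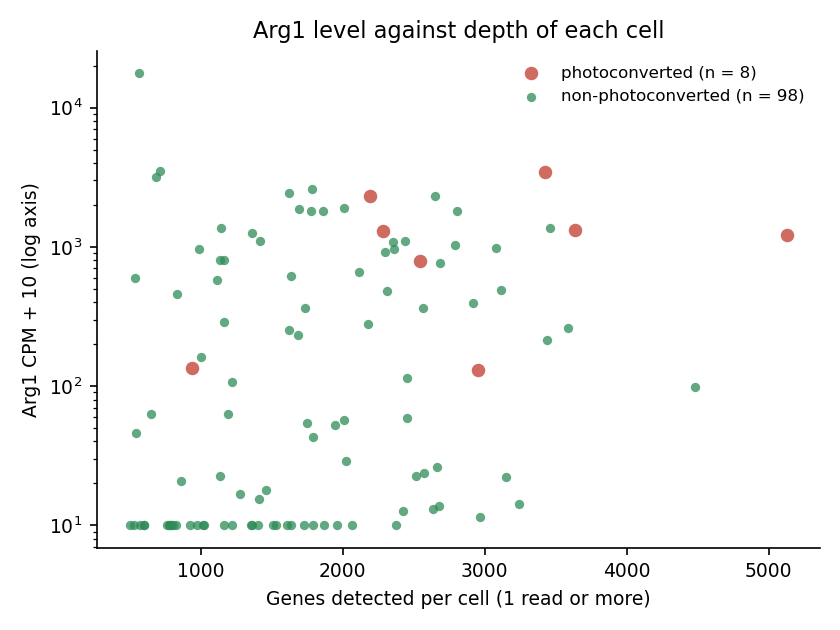
*Arg1* CPM plus 10 on a log axis against the number of genes detected in each photoconverted and non-photoconverted cell. Of 8 photoconverted cells, 6 lie between 778 and 3412 CPM at 2189 genes or more. Non-photoconverted cells with 2189 genes or more reach from near 0 into the same range.

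Within a colour, *Arg1* was set beside red fluorescence in the sort record, and no correlation was computed over the 8 photoconverted cells. Photoconverted cell 2, the reddest of the 8 at 29626 arbitrary units, had 1284 CPM, while cell 1 at 6812 units had 3412 CPM. Of the pair nearest to the non-photoconverted range, cell 7 (2202 units) had 1302 CPM and cell 8 (2338 units) 124 CPM. Next in fluorescence, cell 3 (3538 units) had 121 CPM, the lowest of the 8. Non-photoconverted cells ranged from -2415 to 1527 units, and over these 98 cells *Arg1* CPM had a Spearman rho of -0.03 with fluorescence.

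ILC2 transcripts were present in cells with and without *Arg1*, in close shares. At least 3 of 12 measured ILC2-like markers were detected in 8 of 8 photoconverted cells, in 37 of 43 *Arg1*-positive non-photoconverted cells (86%) and in 47 of 55 *Arg1*-negative ones (85.5%). The summed level of these markers had a median of 13033 CPM in photoconverted cells (5342 to 18147), 8623 CPM in *Arg1*-positive cells (135 to 23412) and 9209 CPM in *Arg1*-negative cells (1131 to 26698). At least 1 of the markers had 16 reads in 42 of 43 *Arg1*-positive and 54 of 55 *Arg1*-negative cells. The *Arg1*-positive cell without any had 688 genes.

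Markers of macrophages and hepatocytes, other cells known for *Arg1*, were also measured. Of 23 listed macrophage or other myeloid markers 7 had a row, and at 16 reads or more *Cd68*, *Cst3* and *Cd74* were detected in photoconverted cells, *Cst3*, *H2-Ab1* and *Cd74* in *Arg1*-positive cells and *Cst3* and *Cd74* in *Arg1*-negative cells. *Cst3*, a protease inhibitor that many cell types make, was detected in 6 of 8 photoconverted cells, 13 of 43 *Arg1*-positive cells and 16 of 55 *Arg1*-negative cells, and *Cd68*, a lysosomal marker of macrophages, in 1, 0 and 0 cells. Of depth-matched cells 40% had *Cst3*. The summed myeloid level ranged from 8.48 to 937 CPM in photoconverted cells, from 0 to 5168 CPM in *Arg1*-positive cells and from 0 to 2552 CPM in *Arg1*-negative cells, with medians of 206, 30.9 and 9.4 CPM. All of *Cst3*, *H2-Ab1* and *Cd74* were present in 2 *Arg1*-positive cells, with 945 and 216 *Arg1* reads, and these also held 8 and 9 ILC2-like markers and 23 and 17 genes of the cell cycle list. Of the hepatocyte markers, *Ass1* alone had a row, and it was detected in 0 cells. The part of other cell types in the *Arg1* values was otherwise not tested.

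Few genes varied with *Arg1* across the non-photoconverted cells once depth was taken into account, and 0 members of the gene lists described below differed by 25 percentage points. The share of cells with each gene was compared between 43 *Arg1*-positive and 55 *Arg1*-negative cells within 4 strata of depth, since the positive cells had a median of 1863 genes and the negative cells 1403. Of 1754 genes, 7 (0.399%) differed by 25 percentage points or more, 2 of them (0.114%) higher and 5 (0.285%) lower in *Arg1*-positive cells. The median difference over all these genes was 1.71 points, with the 5th percentile at -13.0 and the 95th at 14.9. The count and its direction depended on the settings. It was 57, all higher in *Arg1*-positive cells, when depth strata were left out, and 9 higher and 2 lower with detection at 64 reads.

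Among the genes more frequent in *Arg1*-positive cells, *Trim28*, a transcriptional corepressor, passed 25 points. It was detected in 39.8% of *Arg1*-positive and 9.58% of *Arg1*-negative cells after stratification. Its Spearman correlation with *Arg1* CPM across the 98 cells, given the number of genes, was 0.30, where 90% of genes lay between -0.17 and 0.16. Behind it came *Vps29*, a part of the retromer sorting complex, at 31% of *Arg1*-positive and 6.13% of *Arg1*-negative cells, *Sri*, a calcium-binding protein, *Eif3a*, a translation initiation factor subunit, *Atrx*, a chromatin remodeller, and *Serp1*, a protein of the endoplasmic reticulum. *Vars*, the valyl-tRNA synthetase, *Gpx4*, which detoxifies lipid peroxides, *Stk4*, a kinase of the Hippo pathway, *Ybx1*, an RNA-binding protein, and *Banf1*, a DNA-binding protein of the nuclear envelope, followed, with differences of 22.1 to 23.3 points. The level of *Trim28* pointed the same way, at 14.8% of *Arg1*-positive and 3.45% of *Arg1*-negative cells with 16 reads when drawn down to 20000 reads. On this scale *Vps29* (2.41% and 2.25%) and *Gpx4* (10.80% and 10.74%) hardly differed. The other genes of this paragraph stayed higher in *Arg1*-positive cells. Mean CPM of *Vars* was lower in *Arg1*-positive cells, at 195 against 224. Behind *Trim28*, the correlation with *Arg1* given the number of genes ran from 0.04 (*Stk4*) to 0.23 (*Serp1*). For *Vps29*, *Eif3a*, *Atrx*, *Vars* and *Stk4* it lay inside the range that held 90% of genes.

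The genes furthest the other way were *Top1*, DNA topoisomerase I (22.8% of *Arg1*-positive and 52.1% of *Arg1*-negative cells), and *Macf1*, which links microtubules to actin (28.1% and 55.8%). *Fam65b*, an inhibitor of RhoA (10.5% and 37.1%), *Prkd3*, a protein kinase D (10.4% and 36.8%), and *Ppp6r1*, a regulatory subunit of protein phosphatase 6 (17.7% and 43.2%), also passed 25 points. Next were *Lax1*, a membrane adaptor of lymphocyte receptor signalling, *Map2k2*, a kinase of the MAP kinase cascade, *Cltc*, the clathrin heavy chain, *Cdc5l*, a splicing factor, *Ppp1r9b*, a scaffold of protein phosphatase 1, *Wnk1*, a kinase of ion transport, and *Emp3*, a membrane protein, with differences of -22.8 to -21.0 points. Drawn down to 20000 reads, *Cdc5l* turned, with 16 reads in 2.37% of *Arg1*-positive and 1.17% of *Arg1*-negative cells. On this scale *Ppp6r1* hardly differed (0.27% and 0.38%), and *Ppp1r9b* stood at 20.4% and 24.4%. The other genes named so far in this paragraph stayed lower in *Arg1*-positive cells. Partial correlations were -0.32 for *Top1*, -0.24 for *Macf1* and -0.31 for *Wnk1*, and between -0.29 and -0.03 for the others. These genes were chosen by size on the same cells, and weak correlations in sparse counts are given as values and not as findings. Photoconverted cells, which did not enter the choice, had *Trim28* in 1 of 8 cells, against 55% of depth-matched cells. Of the 11 named genes more frequent in *Arg1*-positive cells, photoconverted cells had 3 more often, 7 less often and 1 equally often than depth-matched cells, and of the 12 less frequent ones 6 more often, 5 less often and 1 equally often.

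**Figure D3:**
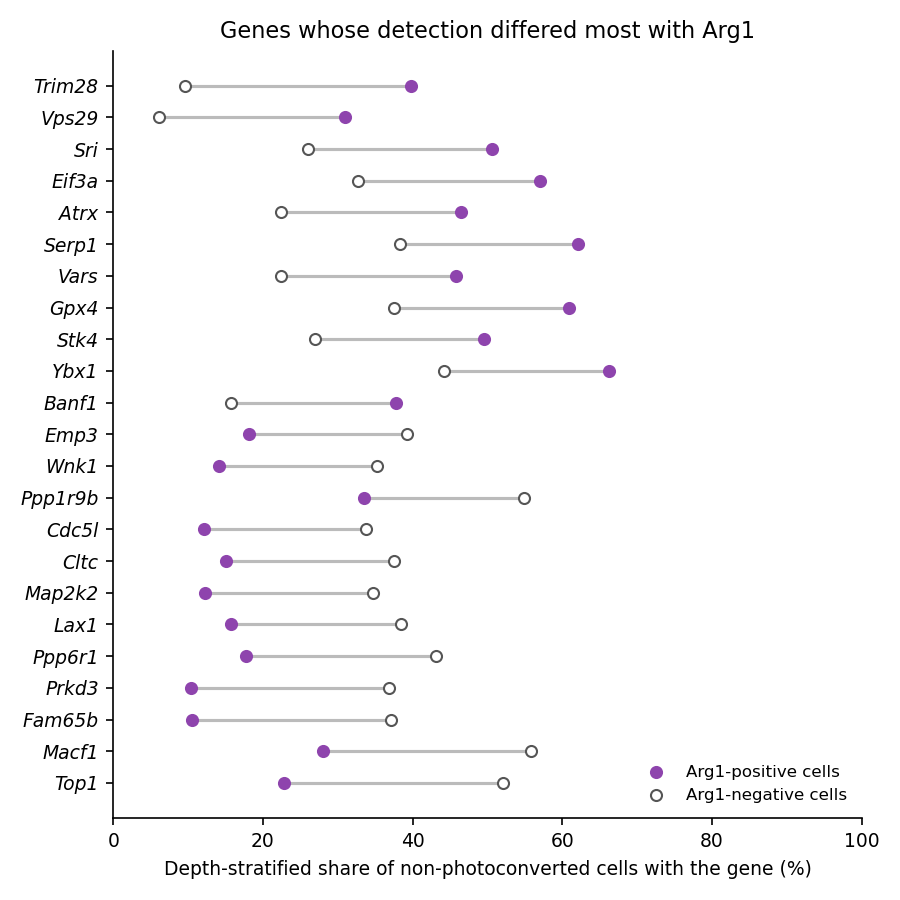
Depth-stratified share of 43 *Arg1*-positive (filled) and 55 *Arg1*-negative (open) non-photoconverted cells in which each named gene had 16 reads or more. The 11 upper genes, led by *Trim28*, were detected more often in *Arg1*-positive cells, and the 12 lower genes, with *Top1* at the foot, less often.

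Genes that supply or use arginine and ornithine were sparsely detected. Of 18 listed genes of arginine transport and use, 7 had a row and 1 was frequent enough to compare. *Slc3a2*, the heavy chain shared by several amino acid transporters, was detected in 46.1% of *Arg1*-positive and 40% of *Arg1*-negative cells. *Slc7a1*, the main cationic amino acid transporter of many cells, was detected in 6 of 43 *Arg1*-positive and 1 of 55 *Arg1*-negative cells (11.5% and 2.52% after stratification), and *Slc38a9*, a lysosomal arginine sensor, in 2 and 2 cells. *Arg2*, the mitochondrial arginase, was not analysed here.

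Downstream of the enzyme, 2 of 17 measured genes of ornithine, polyamine and proline synthesis could be compared. *Odc1*, ornithine decarboxylase, which turns the product of arginase into putrescine, was detected in 48% of *Arg1*-positive and 50.1% of *Arg1*-negative cells. *Eif5a*, the translation factor that carries the polyamine-derived amino acid hypusine, was detected in 65.8% and 61.6%. *Sat1*, which acetylates polyamines, was detected in 6 of 43 *Arg1*-positive and 3 of 55 *Arg1*-negative cells (13% and 6.85% after stratification). Of the 8 photoconverted cells, 4 had *Odc1*, 7 had *Eif5a* and 3 had *Sat1*. In the depth-matched cells the shares were 67.5%, 70% and 22.5%.

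Transcription factors and receptors known to act on *Arg1* in other cells were spread over both classes. Of 12 such genes compared, 7 were higher and 5 lower in *Arg1*-positive cells, 0 by 25 points, with a median difference of 1.56 points against 1.71 over all genes. *Gata3*, the lineage factor of ILC2, was detected in 86.9% of *Arg1*-positive and 82.6% of *Arg1*-negative cells, *Il2rg*, the shared cytokine receptor chain, in 75% and 79.9%, and *Cebpb*, known as an activator of *Arg1* in macrophages, in 34.4% and 26.8%. *Pparg*, a lipid-sensing nuclear receptor, fell below the 15% limit for comparison and is named because of its values. It was detected in 10 of 43 *Arg1*-positive and 3 of 55 *Arg1*-negative cells (24.1% and 6.95% after stratification). Of photoconverted cells 1 of 8 had *Pparg*, against 30% of depth-matched cells. *Atf4*, a factor of the amino acid stress response, was likewise picked after its values were seen. It was detected in 14.4% of *Arg1*-positive and 30.5% of *Arg1*-negative cells, but in 6 of 8 photoconverted cells, against 22.5% of depth-matched cells.

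Genes of ILC2 identity and of secreted products were likewise found in both classes. Of 16 identity genes compared, 5 were higher and 11 lower in *Arg1*-positive cells, 0 by 25 points, with a median of -0.94 points. Over all genes 1002 of 1754 were higher and 752 lower, the median was 1.71 points and 0.399% passed 25 points. *Lmo4*, a transcriptional cofactor, was detected in 81.5% of *Arg1*-positive and 75.3% of *Arg1*-negative cells, and *Il1rl1*, the receptor for interleukin-33, in 70.1% and 71.6%. *Il7r*, the interleukin-7 receptor, was lower at 52.3% and 70.3%, and was picked after its values were seen. Of 7 secreted products compared, 2 were higher and 5 lower in *Arg1*-positive cells, 0 by 25 points, with a median of -7.4 points against the same 1.71. *Areg*, an epidermal growth factor family member, was detected in 72.2% of *Arg1*-positive and 63.7% of *Arg1*-negative cells, *Cxcl2*, a neutrophil chemokine, in 26.6% and 24.8%, and *Calca*, which encodes the neuropeptide CGRP, in 33.5% and 42%. *Il5*, the eosinophil growth factor, was present in 10 of 43 *Arg1*-positive and 13 of 55 *Arg1*-negative cells (18.9% and 26.3% after stratification). *Il13*, another type 2 cytokine, was present in 5 and 3 cells (9.5% and 7.79%).

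Glycolysis, the pathway linked to *Arg1* in lung ILC2, had 7 genes to compare. Of these 4 were higher and 3 lower in *Arg1*-positive cells, 0 by 25 points, and the median was 9.1 points, against 1.71 over all genes, of which 0.399% passed 25 points. *Ldha*, lactate dehydrogenase, was detected in 75.4% of *Arg1*-positive and 66.3% of *Arg1*-negative cells, *Pkm*, pyruvate kinase, in 52.4% and 61.8%, and *Gpi1*, glucose-6-phosphate isomerase, in 31.5% and 35.2%. *Gapdh*, whose many near-identical pseudogenes can take part of its reads, was detected in 45% and 27.1%. *Pgk1*, phosphoglycerate kinase, was detected in 43.5% and 28.8%, and *Aldoa*, aldolase, in 52.6% and 40.9%. These 3 were picked after their values were seen, and all were higher in *Arg1*-positive cells. *Pfkp*, a phosphofructokinase below the 15% limit for comparison, stood furthest the other way, at 2.82% and 18.2% after stratification. *Hk2*, a hexokinase also below the limit, was detected in 6.58% and 13.9%. Both were likewise picked after their values were seen. Other members below the limit lay on both sides, from -4.96 (*Tpi1*) to 4.16 points (*Ldhb*).

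**Figure D4:**
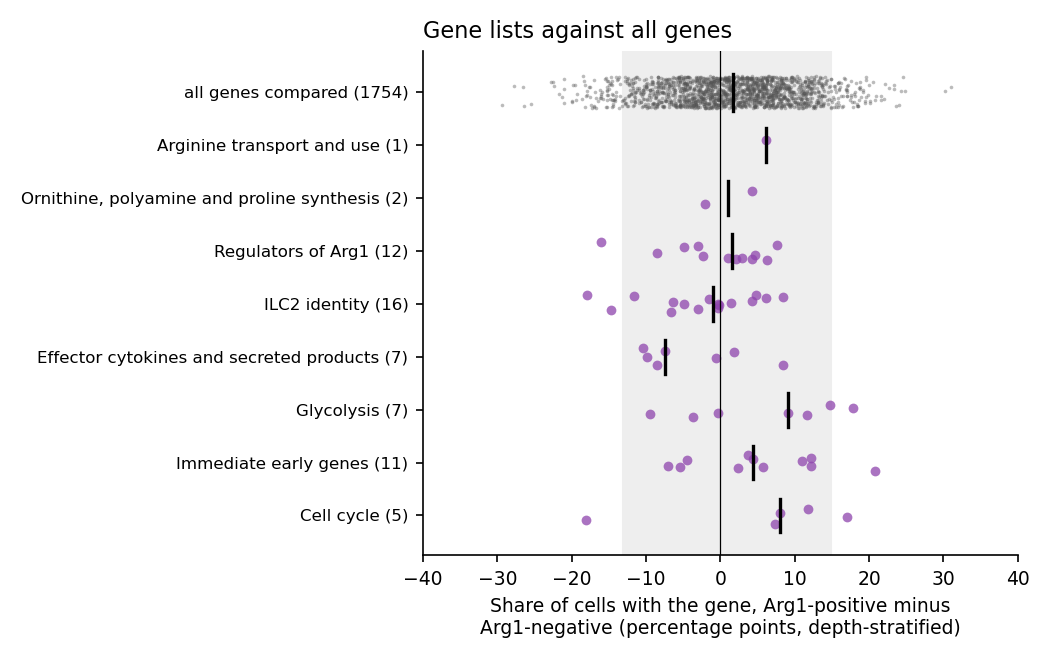
Difference in depth-stratified share of cells, *Arg1*-positive minus *Arg1*-negative non-photoconverted cells, for the compared members of 8 gene lists and for all 1754 genes. Bars are medians and the grey band spans the 5th to 95th percentile of all genes (-13.0 to 14.9 points); most list members lie inside it.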

How the data were processed

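The deposited table holds raw read counts per gene and well for 4 plates. The tools named in the submitters' processing notes are STAR, STARsolo and edgeR, without version or role, and the build is mm10. The red fluorescence intensity in arbitrary units was used as deposited by the authors. Plate 1 was used alone. Its rows named as spike-ins held 43.2% and mitochondrial rows 5.63% of 52614294 reads. The share of spike-in rows did not set it apart, at 0.113%, 44.1% and 21.7% on plates 2, 3 and 4. Mitochondrial rows held at most 0.0531% on plates 2 to 4. The count of wells with reads in each row correlated there with plate 1 at a Spearman rho of 0.0382 to 0.0803. Row names were therefore not used on plates 2 to 4. Gene reads per passing cell ranged from 17825 to 1677643. Spike-in rows stayed out of gene reads.

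A gene was detected at 16 reads, because empty wells had a median of 92 genes at 1 read and 3 at 16. Depth strata were 4 equal parts of the cells by number of genes without *Arg1*, weighted by n1n0/(n1+n0). Genes are named for the size of their difference, 12 in each direction, where the partial rank correlation had the same sign, leaving out ribosomal, mitochondrial, numbered and pseudogene rows; 1 of these genes is not reported here. Up to 3 members of each list are named by mean CPM. Draw-downs are exact hypergeometric expectations. With 1 sample there was no test and no normalization across libraries. Members, lists and rules were chosen with earlier results of these data known. The calculations were tested on simulated data. Python 3.11.15, numpy 2.4.6, pandas 2.3.3 and scipy 1.17.1 were used. Doublets were not called, as each well received 1 sorted cell.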

Additional observations from a re-analysis of the deposited data

Results flagged for a closer look

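*Arg1* was also found in sorted wells that failed the cell filter and entered none of the comparisons, above its level in empty wells (at most 3 reads). It had 16 reads or more in 1 of 4 such photoconverted wells, which held 404 *Arg1* reads among 16955 gene reads with 435 genes. It had 16 reads or more in 3 of 53 such non-photoconverted wells, with 133 reads in the highest. Over all sorted wells, *Arg1* was detected in 8 of 12 photoconverted (66.7%) and 46 of 151 non-photoconverted wells (30.5%).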

How the results depend on the processing

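The *Arg1* share of photoconverted cells was higher under each alternative tried, by 12.5 points over depth-matched cells with detection at 1 read. Drawn down to 20000 reads it was higher by 45.1 points than in depth-matched and by 44.4 points than in all non-photoconverted cells; without matching or drawing down, it exceeded all non-photoconverted cells by 43.6 points. It ranged from 20 to 34.3 points when each photoconverted cell was left out in turn. The share of non-photoconverted cells was 69.4% with detection at 1 read, 57.1% at 4 reads and 23.5% drawn down to 20000 reads. The log2 ratio of mean CPM was 1.63 with at least 1000 genes per cell, 2.37 with at least 250 and 2.04 over all sorted wells. Against depth-matched cells it was 1.66, and per 1000 spike-in reads (0.01 added) it was 2.58. It ranged from 0.67 to 1.21 without each photoconverted cell. Without the highest non-photoconverted cell it was 1.49, an alternative chosen after seeing the data. The values of 2.37 and 2.04 take in a photoconverted well with 435 genes and 23828 CPM. Over all sorted wells the mean was 2892 ± 6674 CPM in photoconverted wells (SD, n = 12 wells). In non-photoconverted wells, which reached 21179 CPM, it was 695 ± 2469 CPM (SD, n = 151 wells). The ratio without the photoconverted well was not computed. The count of 7 genes past 25 points was 49, 11 and 11 with detection at 1, 4 and 64 reads, 32 and 3 with at least 1000 and 250 genes per cell, 57 without strata, 25 without the cells with 1 to 15 reads and 11 without 3 dividing cells. Between 0.0739% and 3.25% of genes passed. The split by direction turned: 9 genes were higher and 2 lower at 64 reads, 20 and 12 with at least 1000 genes per cell, 3 and 0 with at least 250, 19 and 6 without the cells with 1 to 15 reads, and 7 and 4 without the dividing cells. Of the 7 genes, 0 passed with detection at 4 reads and 7 with at least 1000 genes per cell. Of 245 values of the named genes under the settings that can move them, 212 kept their sign and at least 0.5 of their difference, 26 kept their sign alone, and 7 changed sign. These 7 all came with detection at 1 read, where *Map2k2* stood at 20.9, *Emp3* at 13.4, *Fam65b* at 0.12, *Stk4* at -2.38, *Atrx* at -6.89, *Vars* at -7.04 and *Ybx1* at -7.17 points. The cause of these moves was not tested. No paired analysis was possible because plate 1 is 1 sample. With 8 photoconverted cells, the interval of their share, 47.3 to 99.7%, takes in the depth-matched share of 60%. The difference of 27.5 points is thus not resolved.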

Other observations

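Genes of acute activation were compared as well. Of 11 immediate early genes compared, 8 were higher and 3 lower in *Arg1*-positive non-photoconverted cells, 0 by 25 points, with a median of 4.46 points against 1.71 over all genes. *Zfp36*, which speeds the decay of cytokine mRNA, was detected in 88.3% of *Arg1*-positive and 83.9% of *Arg1*-negative cells, and *Nr4a1*, an orphan nuclear receptor induced by activation, in 85.8% and 73.5%. *Fosl2*, an AP-1 subunit named after its values were seen, stood furthest at 65.9% and 45.1%. Of the 3 lower genes *Jund*, picked in the same way, stood furthest at 65.1% and 72.2%. *Junb*, above the 85% limit for comparison, was also lower, at 89.2% and 94.6%.

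Dividing cells had *Arg1*. The 3 non-photoconverted cells with 10 or more genes of the cell cycle list (23, 12 and 17 genes) held 945, 539 and 216 *Arg1* reads, and were deep, with 3083 to 3586 genes. In the deepest of the 4 strata, which holds them, *Arg1* was detected in 14 of 24 cells (58.3%). The cells with 945 and 216 *Arg1* reads are the same ones that held *Cst3*, *H2-Ab1* and *Cd74* together. Of the 5 cell cycle genes frequent enough to compare, 4 were higher and 1 lower in *Arg1*-positive cells, 0 by 25 points, with a median of 8.06 points. Over all genes 1002 of 1754 were higher and 752 lower, the median was 1.71 points and 0.399% passed 25 points. *Pcna*, the DNA polymerase clamp, was detected in 31.9% and 23.9%, *Tubb5*, a tubulin, in 53.1% and 45.7%, and *H2afz*, a histone variant, in 35.3% and 53.4%.

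*Arg1* was spread over the plate. In the 7 plate rows that held sorted cells, it was detected in 28.6 to 54.5% of 11 to 18 non-photoconverted cells per row.

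Markers of other lymphocytes were counted in the same way. At least 3 T cell-like markers were present in 0 of 8 photoconverted, 0 of 43 *Arg1*-positive and 2 of 55 *Arg1*-negative cells, and at least 1 in 3, 7 and 10 cells. At least 3 NK or ILC1-like or ILC3-like markers, of 4 measured in each list, were present in 0 cells of each class. At least 1 NK or ILC1-like marker was present in 0, 3 and 4 cells. At least 1 ILC3-like marker was present in 4 of 8 photoconverted, 22 of 43 *Arg1*-positive and 24 of 55 *Arg1*-negative cells. In photoconverted cells the only one was *Ltb*, which other lymphocytes also make and which 85% of depth-matched cells had.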
